A study of Mus musculus with 20 samples.

Results

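The subject is 9 hepatokine genes of mouse liver, Fgf21, Gdf15, Inhbe, Igfbp1, Igfbp2, Angptl4, Angptl8, Ahsg and Fetub, taken by exact symbol from the 54325 genes of each of 2 deposited tables; all 9 were present and tested in both. Liver mRNA had been sequenced from C57BL/6 mice in 4 groups. On a methionine and choline deficient (MCD) diet, labelled as steatohepatitis, mice received an antibody that neutralizes acyl-CoA binding protein (anti-ACBP) or an IgG control. On regular chow, labelled healthy, they received anti-ACBP or IgG. The labels list 5 samples per group and give no sex, age, dose or duration, and they do not say whether each sample is a separate animal, so p-values measure the spread between samples. The files give group means, not values per sample. The means rest on 5 libraries per group on MCD and on 4 per group on chow, as read from the smallest steps in the values.

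Hepatokines are proteins that hepatocytes release into blood and that act on metabolism elsewhere. FGF21, GDF15 and activin E (the product of Inhbe) are stress and nutrient signals whose genes are known to respond to the transcription factors ATF4 and CHOP, and FGF21 also to the fasting receptor PPARalpha. IGFBP1 and IGFBP2 bind insulin-like growth factors, ANGPTL4 and ANGPTL8 restrain lipoprotein lipase, and the fetuins AHSG and FETUB are abundant plasma glycoproteins of the cystatin superfamily. The MCD diet lacks the precursors needed for methylation and for phosphatidylcholine, and the liver accumulates fat and becomes inflamed.

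All levels are mean normalized counts, that is read counts divided by library size factors, from the authors' deposited tables, whose columns sum to between 34621779 and 39398190. Log2 fold changes are anti-ACBP over IgG with their standard error (SE) from the same tables, where a gene counts as changed at an adjusted p under 0.05 in the authors' DESeq2 Wald test. Adjusted p-values below 0.001 were computed anew from that ratio and its SE. In the tissue check, summed hepatocyte markers (12 genes, Alb among them) stood at 123854 CPM (counts scaled to a column total of 1000000) in MCD anti-ACBP, 112412 in MCD IgG, 106950 in chow anti-ACBP and 90491 in chow IgG.

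Other cell types differed in the same comparison on MCD. Of 13 macrophage markers 10 fell and 1 (Timd4) rose, and their summed level was 248 CPM in MCD anti-ACBP and 858 CPM in MCD IgG. Gpnmb, of lipid-laden macrophages, had 276 normalized counts in MCD anti-ACBP and 6629 in MCD IgG (-4.58 ± 0.21, adjusted p = 1.32e-97), and Itgax, which encodes CD11c, had 90.5 in MCD anti-ACBP and 858 in MCD IgG (-3.25 ± 0.20, adjusted p = 1.67e-56, authors' deposited table). All 9 stellate and fibroblast markers fell (279 CPM in MCD anti-ACBP and 642 CPM in MCD IgG). On chow 0 of 12 tested macrophage markers passed in the authors' DESeq2 test, with 1 at an unadjusted p under 0.05 and sums of 194 CPM with anti-ACBP and 209 CPM with IgG. Of the stellate markers 1 rose and 3 fell on chow, with sums of 156 CPM with anti-ACBP and 135 CPM with IgG. No macrophage or stellate marker was under 1 normalized count in both groups of a diet. Of 12 hepatocyte markers 5 rose on MCD and 0 fell, or 2 and 1 relative to column totals, where Timd4 was not called either. In whole liver, fewer cells of a type and less RNA per cell cannot be told apart. The part of these cells in the values of the hepatokine genes was not tested.

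With the antibody on MCD, 4 members fell (Gdf15, Igfbp1, Inhbe and Ahsg), 1 rose (Fetub) and 4 did not pass (Fgf21, Igfbp2, Angptl4 and Angptl8). These 5 of 9 called stand beside 30.9% of all 20265 genes tested in the authors' deposited table (14.7% rising and 16.2% falling). On chow only Igfbp2 rose and 8 members did not pass, beside 12.0% of 14618 genes called (5.58% rising and 6.46% falling), a share near that background. At an unadjusted p under 0.05 there were 6 members on MCD and 2 on chow. At an adjusted p under 0.01 the calls were 2 members on MCD and 0 on chow, beside 22.7% and 6.89% of all genes. With a log2 change of at least 1 as well they were 2 and 0, beside 10.6% and 2.08%. The median log2 fold change of the members was -0.23 on MCD and -0.02 on chow, beside 0.02 and 0.00423 over all genes tested. Scaling to column totals instead shifts every log2 fold change by -0.19 on MCD and 0.14 on chow. It left the same 5 members called on MCD and the same 1 on chow.

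**Figure D1:**
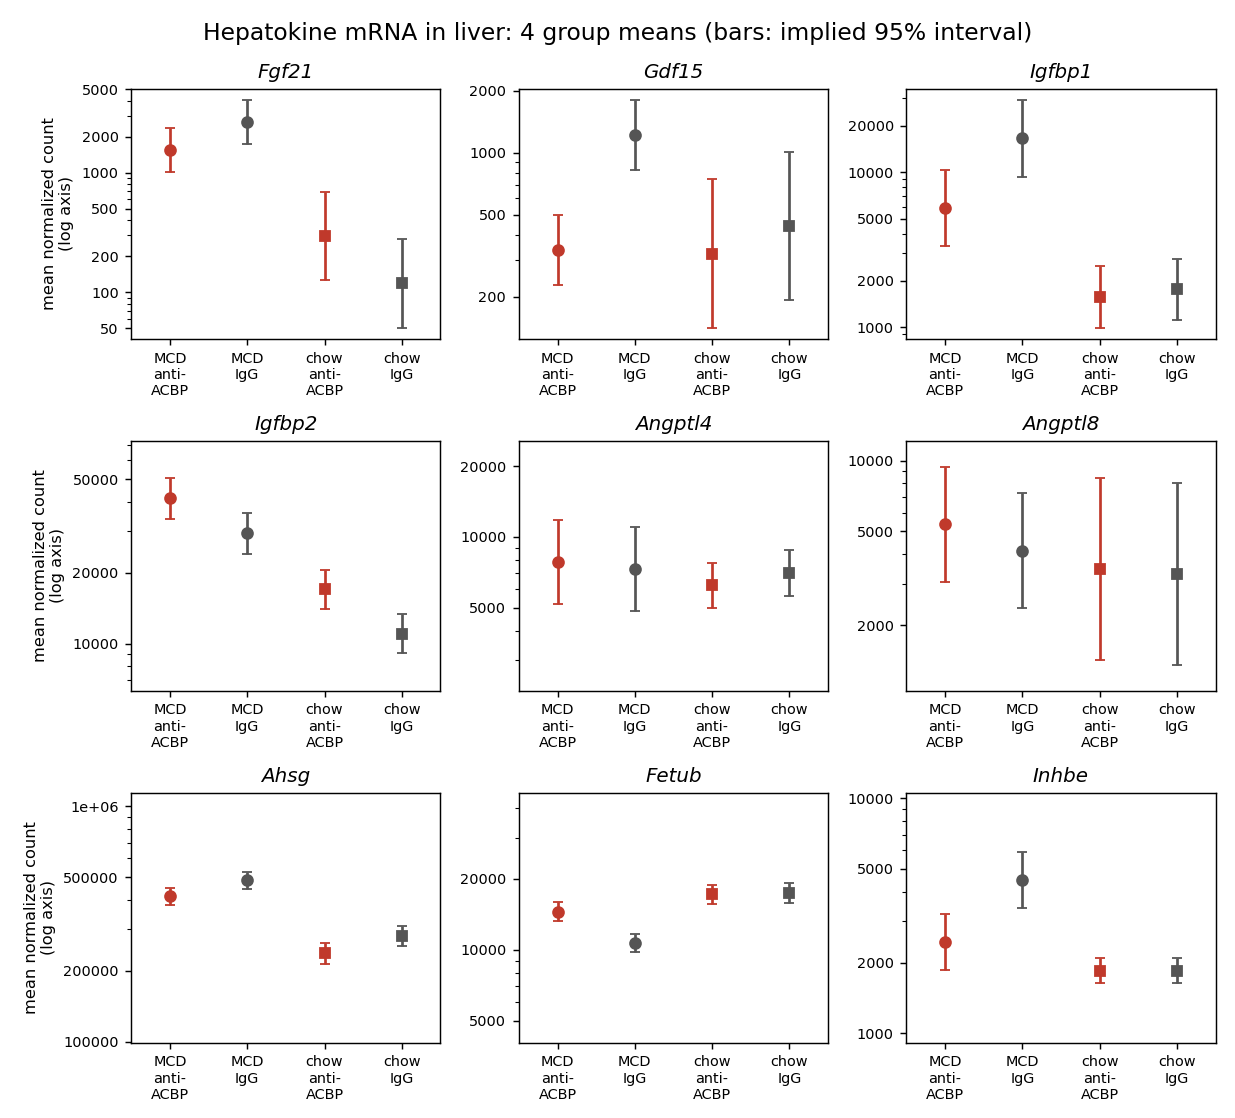
Mean normalized count (log axis) of each hepatokine gene in the 4 groups, anti-ACBP in red and IgG in grey, MCD as circles and chow as squares; bars are 95% intervals implied by the deposited SE. By mean Fgf21 and Igfbp1 stood higher on MCD than on chow under both antibodies, and Gdf15 and Inhbe stood highest in MCD IgG. The Gdf15 intervals of MCD IgG and chow IgG overlap.

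The stress-responsive hormones come first. Gdf15, a hormone of cell stress that reduces appetite through a hindbrain receptor, had 338 normalized counts in MCD anti-ACBP and 1218 in MCD IgG. It stood at 324 in chow anti-ACBP and 441 in chow IgG. By mean MCD IgG was thus the high group, and the other 3 groups lay within 324 to 441. The implied 95% interval of MCD IgG (825 to 1796) overlaps that of chow IgG (193 to 1009). The values of each diet were scaled separately, and this contrast between diets was not tested. On MCD Gdf15 fell with the antibody, by a log2 fold change of -1.85 ± 0.41 (SE; adjusted p = 4.93e-05, authors' deposited table), or 0.277 times the IgG level with a 95% interval of 0.16 to 0.481. On chow its log2 fold change was -0.44 ± 0.86 (adjusted p = 0.812, authors' deposited table), and the interval, 0.228 to 2.37 times, takes in the value seen on MCD. The difference between diets, -1.41 ± 0.95, did not pass (adjusted p = 0.304).

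Inhbe, which encodes the beta E subunit of activins and is made mainly in hepatocytes, had 2455 normalized counts in MCD anti-ACBP and 4484 in MCD IgG. In chow anti-ACBP and chow IgG it had 1846 each. With the antibody Inhbe fell on MCD, by a log2 fold change of -0.87 ± 0.29 (adjusted p = 0.0104, authors' deposited table), to 0.548 times the IgG level (95% interval 0.371 to 0.807). On chow the deposited log2 fold change was -0.000106 ± 0.13 (adjusted p = 0.9998, authors' deposited table; interval 0.841 to 1.19 times). The effect on MCD minus that on chow was -0.87 ± 0.31 (SE), and this difference passed its own test (adjusted p = 0.0281 over 14607 genes, from both deposited fold changes and SEs). It passed relative to column totals too (-1.19, adjusted p = 8.88e-04).

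Fgf21, the fasting and stress hormone, had 1545 normalized counts in MCD anti-ACBP and 2653 in MCD IgG. On chow it had 297 with anti-ACBP and 119 with IgG. It was the member with the widest span between groups. Its implied 95% intervals on MCD (1013 to 2357 with anti-ACBP, 1740 to 4046 with IgG) lay wholly above those on chow (126 to 696 with anti-ACBP, 50.6 to 280.0 with IgG). The values of each diet were scaled separately, and this contrast between diets was not tested. The antibody effect passed on neither diet. It was -0.78 ± 0.44 on MCD (adjusted p = 0.177) and 1.32 ± 0.89 on chow (adjusted p = 0.385) in the authors' deposited tables. Their difference, -2.10 ± 0.99, had an unadjusted p of 0.0344 and did not pass across genes (adjusted p = 0.112). Relative to column totals it was -2.42 and passed (adjusted p = 0.0413), so this call depends on the scaling.

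The promoters of Fgf21 and Inhbe are shown as those of known stress-responsive genes that stood higher on MCD IgG than on chow IgG and hold a shared element. That of Angptl8 is shown because it was the third to hold the same element. Gdf15 was also such a stress-responsive gene and had a higher mean there, but its windows lack the element and are not shown. Sequences are RefSeq windows on GRCm38.p6 (250 bases before to 50 after a transcription start), matched by symbol, and 8 of the 9 members had 11 windows between them. Angptl4 had no window and was not searched. The files' reads were mapped to another build, mm39, per the submitters' processing notes. Capitals mark the matches to 5 motifs searched on both strands. These were TGATGCAA (the composite element of ATF4 and C/EBP factors), CAAAACAA (the insulin response element bound by FOXO factors), the direct repeat of PPAR and RXR, with both of its copies in full, CACGTG (the E-box) and TGACGTCA (the cAMP response element). No matches overlapped. The windows of Fgf21 (chr7:45615441-45615740, minus strand), Inhbe (chr10:127351799-127352098, minus strand) and Angptl8 (chr9:21835260-21835559, plus strand) read, 5′ to 3′:
Fgf21: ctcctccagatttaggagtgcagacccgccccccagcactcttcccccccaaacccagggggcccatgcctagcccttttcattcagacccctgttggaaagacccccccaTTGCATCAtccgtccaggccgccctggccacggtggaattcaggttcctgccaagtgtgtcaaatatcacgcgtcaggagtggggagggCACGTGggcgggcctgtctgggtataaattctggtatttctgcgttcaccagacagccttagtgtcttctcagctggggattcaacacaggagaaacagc
Inhbe: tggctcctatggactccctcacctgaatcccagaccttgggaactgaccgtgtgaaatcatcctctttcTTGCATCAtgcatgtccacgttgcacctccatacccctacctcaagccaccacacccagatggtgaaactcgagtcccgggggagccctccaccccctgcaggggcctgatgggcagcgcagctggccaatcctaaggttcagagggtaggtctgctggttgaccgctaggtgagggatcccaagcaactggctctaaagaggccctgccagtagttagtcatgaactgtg
Angptl8: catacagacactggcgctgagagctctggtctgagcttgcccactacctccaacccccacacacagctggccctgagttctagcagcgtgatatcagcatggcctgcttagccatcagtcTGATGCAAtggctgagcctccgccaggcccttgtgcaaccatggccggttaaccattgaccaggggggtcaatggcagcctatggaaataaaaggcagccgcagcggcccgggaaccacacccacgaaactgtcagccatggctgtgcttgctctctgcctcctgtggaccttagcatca

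Each of the 3 holds TGATGCAA or its reverse complement, starting at position -139 in Fgf21, -181 in Inhbe and -130 in Angptl8 relative to the transcription start. The Inhbe window lies inside the span of that gene in the GENCODE vM21 annotation (127348857 to 127354411). There the gene begins further upstream, so the Inhbe position holds for the RefSeq start only. That motif occurred in 3 of the 11 member windows, beside 0.895% of all 32851 windows. The Fgf21 window also holds an E-box at -50, a motif present in 7.15% of all windows. Other E-boxes among the members stood at -142 in a window of Igfbp2 and at -83 in a window of Gdf15. Neither the PPAR repeat (in 0.0396% of all windows) nor the cAMP response element (in 1.79%) was found in a member window. Such matches describe the letters only.

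Other genes of the ATF4 and CHOP response were counted from a list of 23. On MCD 0 rose (0 at an unadjusted p under 0.05) and 8 fell with the antibody in the authors' DESeq2 test, where 16.2% of all genes tested fell, and the list's median log2 fold change was -0.48 beside 0.02 over all genes. Atf3, a stress-induced repressor, had 145 normalized counts in MCD anti-ACBP and 1479 in MCD IgG (-3.35 ± 0.27, adjusted p = 9.53e-32, authors' deposited table). Nupr1, a stress-induced chromatin protein, had 403 in MCD anti-ACBP and 2800.1 in MCD IgG (-2.80 ± 0.42, adjusted p = 6.48e-10, authors' deposited table). Ddit3, which encodes CHOP, fell as well (-0.95 ± 0.26, adjusted p = 0.00185), while Atf4 itself stood at 5329 in MCD anti-ACBP and 5578 in MCD IgG and did not pass (-0.07 ± 0.19, adjusted p = 0.836, authors' deposited table).

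Of the list's other genes, Asns, asparagine synthetase and a classical ATF4 target, had 768 normalized counts in MCD anti-ACBP and 1089 in MCD IgG and did not pass (-0.50 ± 0.43, adjusted p = 0.412, authors' deposited table). Chac1, a glutathione-degrading enzyme, had 456 in MCD anti-ACBP and 445 in MCD IgG (0.03 ± 0.63, adjusted p = 0.977). On chow 1 of 21 tested rose and 1 fell. These were Atf3, with 100.3 normalized counts in chow anti-ACBP and 28.7 in chow IgG (1.80 ± 0.57, adjusted p = 0.0202), and Trib3, a pseudokinase, with 244 in chow anti-ACBP and 374 in chow IgG (-0.62 ± 0.22, adjusted p = 0.0422, authors' deposited table). Relative to column totals the MCD counts became 0 rising and 11 falling, and the chow counts 3 rising and 0 falling, Trib3 being lost (adjusted p = 0.102).

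GFRAL, the GDF15 receptor, is a hindbrain protein, and Gfral was listed at 0 in all 4 groups. Klb, the co-receptor that FGF21 needs, rose on MCD and had 1007 normalized counts in MCD anti-ACBP and 695 in MCD IgG (0.53 ± 0.11, adjusted p = 2.60e-05, authors' deposited table). Fgfr4 rose there as well (0.40 ± 0.085, adjusted p = 2.53e-05) and Fgfr1 fell (-0.58 ± 0.19, adjusted p = 0.0119, authors' deposited table). On chow 0 of 6 tested receptor genes passed in the authors' DESeq2 test, with 1 at an unadjusted p under 0.05, and 1 rose relative to column totals. The other subunit genes gave values of either sign on MCD. Inhba, the beta A subunit, rose on MCD, with 861 normalized counts in MCD anti-ACBP and 375 in MCD IgG (1.20 ± 0.28, adjusted p = 1.66e-04, authors' deposited table). Inhbc, the beta C subunit, also rose, with 2742 in MCD anti-ACBP and 2036 in MCD IgG (0.43 ± 0.14, adjusted p = 0.0106), a call lost relative to column totals (0.24, adjusted p = 0.185). Inhbb, the beta B subunit, had 63.9 in MCD anti-ACBP and 171 in MCD IgG (-1.42 ± 0.68, adjusted p = 0.0964), and Inha, the alpha subunit, had 11.3 in MCD anti-ACBP and 16.7 in MCD IgG (-0.55 ± 0.43, adjusted p = 0.358, authors' deposited table); neither passed. Of 15 activin and inhibin signalling genes 5 rose and 1 fell on MCD, and 2 rose and 2 fell relative to column totals, beside 14.7% of all genes rising. On chow 1 of 12 rose, Smad4, the common mediator, with 815 normalized counts in chow anti-ACBP and 649 in chow IgG (0.33 ± 0.10, adjusted p = 0.0205, authors' deposited table), and 4 rose relative to column totals.

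**Figure D2:**
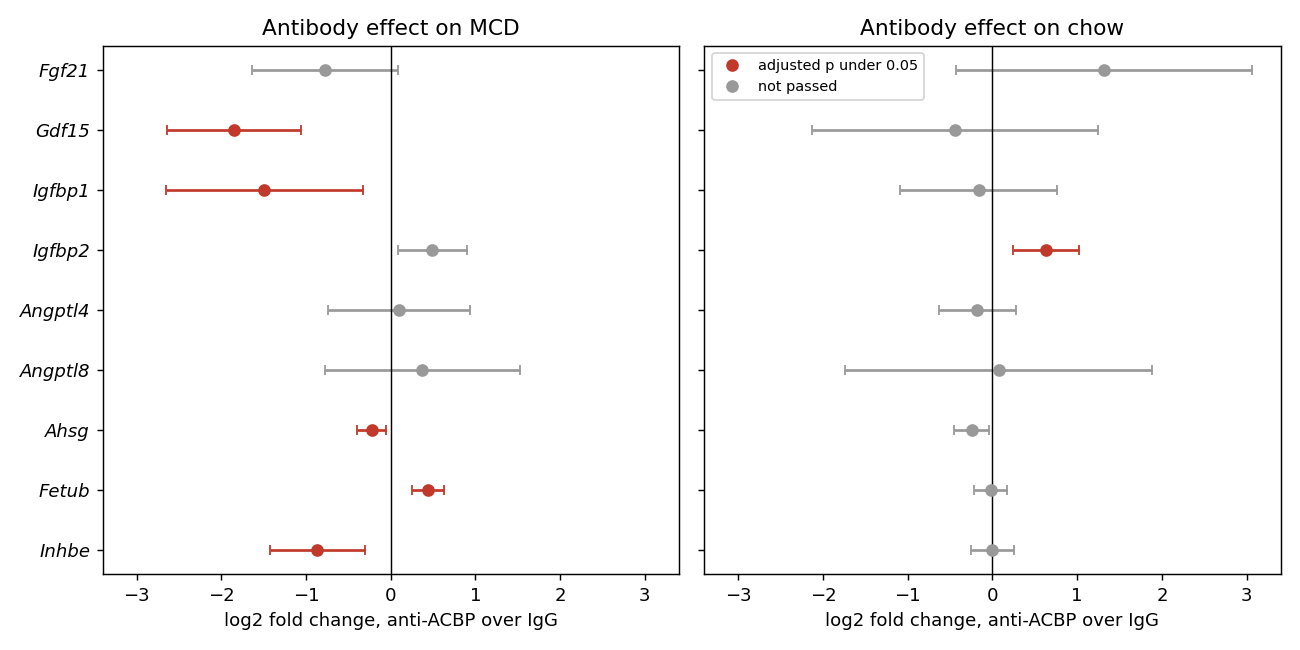
Log2 fold change of each hepatokine gene, anti-ACBP over IgG, on MCD (left) and on chow (right), with 95% intervals; red points had an adjusted p under 0.05. Intervals of Fgf21, Gdf15 and Angptl8 on chow span several units, and those of Ahsg and Fetub are narrow.

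Among the binding proteins of insulin-like growth factors, Igfbp1 and Igfbp2 went opposite ways on MCD, though Igfbp2 did not pass there. Igfbp1, an early response gene of fasting that insulin represses, had 5870.15 normalized counts in MCD anti-ACBP and 16494 in MCD IgG. It had 1568 in chow anti-ACBP and 1755 in chow IgG. Both MCD groups were above both chow groups, and MCD IgG was the highest. Igfbp1 fell with the antibody on MCD, by a log2 fold change of -1.49 ± 0.59 (adjusted p = 0.0400, authors' deposited table), to 0.356 times the IgG level with a 95% interval of 0.159 to 0.795. This call rests close to the threshold and was lost when genes of low mean were kept in the adjustment (adjusted p = 0.0635). On chow the value was -0.16 ± 0.47 (adjusted p = 0.882, authors' deposited table), and the difference between diets, -1.33 ± 0.76, did not pass (adjusted p = 0.205).

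The Igfbp1 window (chr11:7197537-7197836, plus strand, GRCm38.p6) is shown because it holds the insulin response element for which this gene is known, in capitals, 5′ to 3′:
Igfbp1: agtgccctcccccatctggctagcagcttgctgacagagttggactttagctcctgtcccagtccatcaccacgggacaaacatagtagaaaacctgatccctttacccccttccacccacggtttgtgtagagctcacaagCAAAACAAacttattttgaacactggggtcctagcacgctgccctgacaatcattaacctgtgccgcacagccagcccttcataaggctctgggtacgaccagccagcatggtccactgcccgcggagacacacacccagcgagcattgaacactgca

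The element CAAAACAA starts at position -108 and was found in 2.51% of all windows and in 1 of the 11 member windows. Of 12 genes of insulin action and FOXO1 tested on MCD 4 rose and 0 fell, with a median of 0.17 beside 0.02 over all genes, and 3 rose and 2 fell relative to column totals. Over all genes tested on MCD 14.7% rose and 16.2% fell. G6pc, the last enzyme of glucose release and also a FOXO1 target, had 9916 normalized counts in MCD anti-ACBP and 5162 in MCD IgG (0.94 ± 0.29, adjusted p = 0.00547, authors' deposited table). On chow 0 of 13 passed in the authors' DESeq2 test, with 1 at an unadjusted p under 0.05, and 1 rose relative to column totals.

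Igfbp2, the binding protein that leptin and several nuclear receptors are known to induce, had 41427 normalized counts in MCD anti-ACBP and 29438 in MCD IgG. It had 17027 in chow anti-ACBP and 11006 in chow IgG. Within each diet the antibody group was the higher, and each MCD group was above each chow group. On chow Igfbp2 rose by 0.63 ± 0.20 on the log2 scale (adjusted p = 0.0196, authors' deposited table), 1.55 times the IgG level with an interval of 1.18 to 2.03. On MCD the value was 0.49 ± 0.21 (adjusted p = 0.0534, authors' deposited table), 1.41 times with an interval of 1.06 to 1.86. It passed on MCD when only genes at 5 CPM or more were adjusted over (adjusted p = 0.0438). It did not pass there relative to column totals (0.31, adjusted p = 0.264) or with genes of low mean kept in the adjustment (adjusted p = 0.0844). Effects on both diets differed by -0.14 ± 0.29 (adjusted p = 0.788; 95% interval -0.70 to 0.43), so Igfbp2 passing on chow alone is no sign of a difference between diets.

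The rest of the growth factor axis was mixed on MCD, where 3 of 14 rose and 4 fell, beside 14.7% of all genes rising and 16.2% falling. Ghr, the growth hormone receptor, had 14553 normalized counts in MCD anti-ACBP and 7101 in MCD IgG (1.04 ± 0.13, adjusted p = 1.08e-13, authors' deposited table). Igf1 and Igfals, a growth factor and its carrier subunit, rose by 0.59 ± 0.16 (adjusted p = 0.00156) and 0.56 ± 0.14 (adjusted p = 2.46e-04). Igf2r fell (-0.72 ± 0.087, adjusted p = 6.91e-15, authors' deposited table), as did Igfbp3 (-0.52 ± 0.17, adjusted p = 0.00850) and Igfbp7 (-0.63 ± 0.12, adjusted p = 1.66e-06), genes that non-parenchymal cells express. On chow Igf1 fell, with 12906 normalized counts in chow anti-ACBP and 16086 in chow IgG (-0.32 ± 0.10, adjusted p = 0.0231, authors' deposited table), and it was not among the genes called relative to column totals, where 1 rose and 0 fell.

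The angiopoietin-like inhibitors of lipoprotein lipase did not pass on either diet. Angptl4, a PPAR target induced by fatty acids, had 7797 normalized counts in MCD anti-ACBP, 7287 in MCD IgG, 6217 in chow anti-ACBP and 7035 in chow IgG. Its 4 intervals all overlap. The log2 fold change was 0.10 ± 0.43 on MCD (adjusted p = 0.899) and -0.18 ± 0.23 on chow (adjusted p = 0.703) in the authors' deposited tables. Intervals of 0.597 to 1.92 times on MCD and 0.645 to 1.21 times on chow limit what changes could have gone unseen. Angptl8, which feeding and insulin induce, had 5354 normalized counts in MCD anti-ACBP, 4139.94 in MCD IgG, 3467 in chow anti-ACBP and 3296 in chow IgG. Here the intervals are wide, 0.582 to 2.87 times on MCD and 0.299 to 3.70 times on chow. Its log2 fold change was 0.37 ± 0.59 on MCD (adjusted p = 0.690) and 0.07 ± 0.93 on chow (adjusted p = 0.976) in the authors' deposited tables. Angptl8 lies on the opposite strand of Dock6 without sharing exon bases, and the sources used here do not say whether counting used the strand.

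Genes of the lipases and their partners were counted next. Lpl, lipoprotein lipase, fell on both diets, with 607 normalized counts in MCD anti-ACBP and 3781 in MCD IgG (-2.64 ± 0.21, adjusted p = 8.29e-34, authors' deposited table). On chow it had 452 with anti-ACBP and 677 with IgG (-0.58 ± 0.20, adjusted p = 0.0335), a call lost relative to column totals (-0.45, adjusted p = 0.0932). Lipg, endothelial lipase, rose on both diets, by 1.04 ± 0.19 on MCD (adjusted p = 5.40e-07) and 1.39 ± 0.39 on chow (adjusted p = 0.00693). Of 13 genes of lipoprotein lipase control 6 rose and 2 fell on MCD, and 2 rose and 3 fell on chow. Relative to column totals these counts were 4 and 3 on MCD and 5 and 1 on chow. Over all genes tested 14.7% rose and 16.2% fell on MCD, and 5.58% rose and 6.46% fell on chow. Vldlr, the receptor for triglyceride-rich particles, fell on MCD, with 88.4 normalized counts in MCD anti-ACBP and 202 in MCD IgG (-1.19 ± 0.27, adjusted p = 1.12e-04).

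Fgf21 and Angptl4 are both known PPARalpha targets, and the other targets gave different counts of calls by diet. Such counts do not test a difference between diets, and no such test is reported for these genes. On chow 16 of 23 rose with the antibody and 0 fell, beside 5.58% of all genes rising, with a median log2 fold change of 0.38 beside 0.00423. Cyp4a14, a fatty acid hydroxylase, had 14774 normalized counts in chow anti-ACBP and 2025 in chow IgG (2.87 ± 0.80, adjusted p = 0.00567, authors' deposited table), and the thioesterase Acot1 2303 in chow anti-ACBP and 656 in chow IgG (1.81 ± 0.49, adjusted p = 0.00449). On MCD 4 of 23 rose and 4 fell, beside 14.7% of all genes rising and 16.2% falling, and 2 rose and 7 fell relative to column totals. Fat-droplet protein Cidec (-3.19 ± 0.56, adjusted p = 2.18e-07) and the kinase Pdk4 (-1.96 ± 0.60, adjusted p = 0.00560) had the widest changes there in the authors' deposited table.

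**Figure D3:**
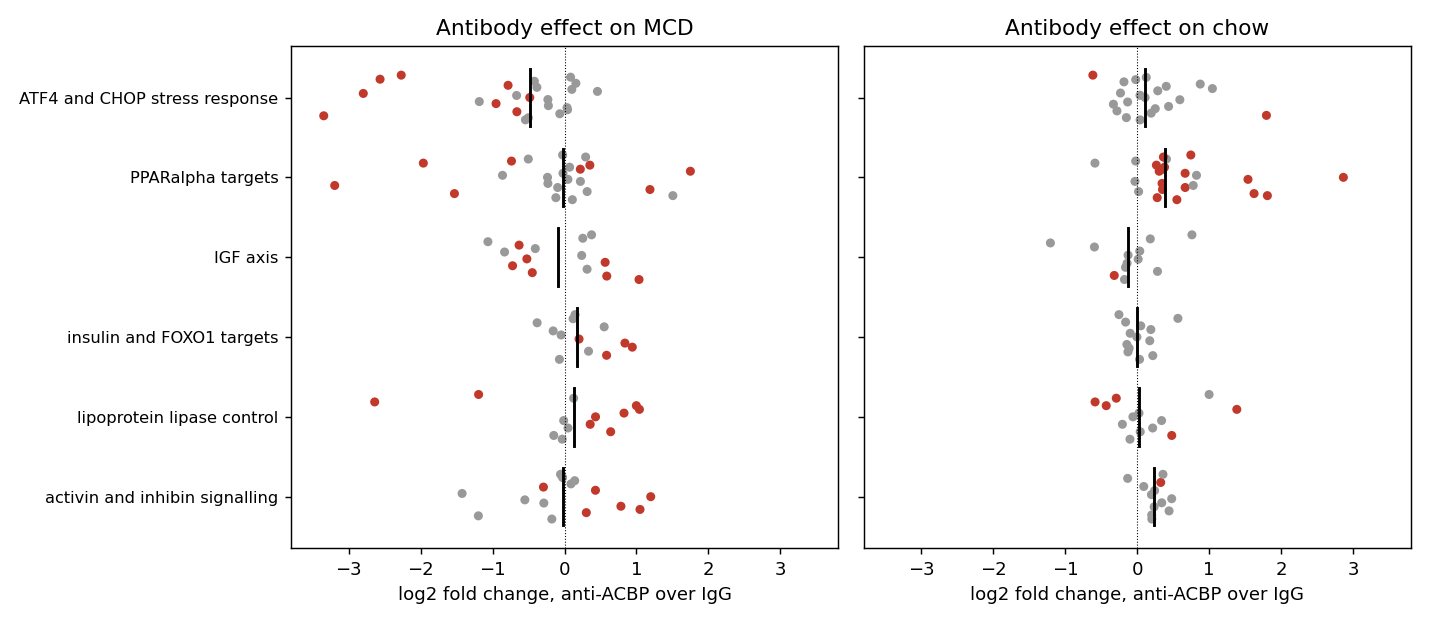
Log2 fold change, anti-ACBP over IgG, of each tested gene in 6 lists related to the hepatokines, on MCD (left) and chow (right); red points had an adjusted p under 0.05 and black bars are list medians. All 8 red points of the ATF4 and CHOP list lie left of 0 on MCD, and all 16 red points of the PPARalpha list lie right of 0 on chow.

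The fetuin genes lie side by side on chromosome 16 (GENCODE vM21, GRCm38: Ahsg at 22891277 to 22899449 and Fetub at 22918334 to 22939778, plus strand), and they went opposite ways on MCD. Ahsg, fetuin A, a mineral-binding protein that also inhibits the insulin receptor, had 415547 normalized counts in MCD anti-ACBP and 485980 in MCD IgG. It had 237251 in chow anti-ACBP and 281124 in chow IgG. It ranked 5 among all genes by mean level on MCD and 14 on chow. Ahsg fell on MCD by -0.23 ± 0.087 (adjusted p = 0.0329, authors' deposited table), 0.855 times the IgG level with an interval of 0.76 to 0.962. On chow the value was nearly the same, -0.24 ± 0.11, but did not pass (adjusted p = 0.122, authors' deposited table), and the difference was 0.02 ± 0.14 (adjusted p = 0.943). The MCD call was lost when genes of low mean were kept in the adjustment (adjusted p = 0.0522).

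Fetub, fetuin B, an inhibitor of astacin-type proteases, had 14501 normalized counts in MCD anti-ACBP and 10691 in MCD IgG. On chow it had 17182 with anti-ACBP and 17456 with IgG. MCD IgG was the low group, and its implied interval (9756 to 11715) lay below the other 3, with no scaling between diets and no test. Fetub rose on MCD by 0.44 ± 0.095 (adjusted p = 3.78e-05, authors' deposited table), 1.36 times the IgG level with an interval of 1.19 to 1.54. On chow the value was -0.02 ± 0.10 (adjusted p = 0.923, authors' deposited table). The difference between diets was 0.46 ± 0.14 and passed (adjusted p = 0.00646), but relative to column totals it was 0.14 and did not (adjusted p = 0.4496). Of their cystatin relatives, Hrg and Kng1, both plasma proteins made by hepatocytes, rose on MCD (0.43 ± 0.13, adjusted p = 0.00479, and 0.37 ± 0.081, adjusted p = 5.69e-05, authors' deposited table), calls lost relative to column totals, where 0 of 5 rose. Cstb, cystatin B, an intracellular protease inhibitor, fell (-1.25 ± 0.13, adjusted p = 5.18e-20).

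Over the 9 members, 2 antibody effects differed between diets by the test of the difference, those of Inhbe and Fetub, beside 23.2% of 14607 genes, so this share is near the background. With an unadjusted p under 0.05 there were 3, Fgf21 being the other. Relative to column totals the 2 were Fgf21 and Inhbe, so Inhbe alone passed under both scalings.

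Levels on MCD and on chow come from tables scaled separately and were set side by side without a test, as log2 ratios of group means centred on the median over genes at 5 CPM or more (8956 genes under IgG and 9195 under anti-ACBP). Under IgG, Fgf21 stood at 18.9 times its chow level, above 99.99% of those genes, and Igfbp1 at 7.97 times, above 99.85%. Those genes reach 5 CPM on both diets, which Fgf21 itself did not in chow IgG (3.08 CPM). Without that limit some listed genes stood higher than Fgf21, such as Cidec at 40.4 times and Nupr1 at 36.9. Gdf15, Igfbp2 and Inhbe stood at 2.34, 2.27 and 2.06 times. Ahsg stood at 1.47 times, Angptl8 at 1.07, Angptl4 at 0.879 and Fetub at 0.5195 times. The Angptl4 ratio changed sign on the log2 scale with the centring, at -0.19 as centred here and 0.21 by column totals.

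With anti-ACBP the diet ratios were nearer to 1 for most of these. Apart from the centring, this change is the difference of antibody effects between diets that was tested above. That difference passed for Inhbe and Fetub only, and relative to column totals for Inhbe and Fgf21 only. Fgf21 stood at 4.25 times its chow anti-ACBP level, Igfbp1 at 3.05, Igfbp2 at 1.98 and Inhbe at 1.08 times. Gdf15 stood at 0.849 and Fetub at 0.688 times. For Gdf15 this log2 ratio, -0.24, was 0.0592 with no scaling between the tables. Under anti-ACBP the chow values of Fgf21 and Igfbp2 were themselves higher than under IgG, which enters this ratio. Places among the genes at 5 CPM or more did not all follow. With anti-ACBP Fgf21 lay above 99.97% of them and Igfbp1 above 99.85%. Igfbp2 lay above 99.1% with anti-ACBP and 97.1% with IgG, Ahsg above 94.9% and 87.7%, and Angptl8 above 89.0% and 58.4%. Gdf15 lay above 13.8% with anti-ACBP and 97.3% with IgG, and Inhbe above 69.3% and 96.1%. The ATF4 and CHOP list had a median log2 ratio of 1.24 under IgG (18 of 20 genes above 0) and 0.34 under anti-ACBP (12 of 17). Set against chow IgG directly, MCD anti-ACBP livers held Fgf21 at 10.4 times, Igfbp2 at 3.03, Igfbp1 at 2.69, Inhbe at 1.07 and Gdf15 at 0.616 times.

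**Figure D4:**
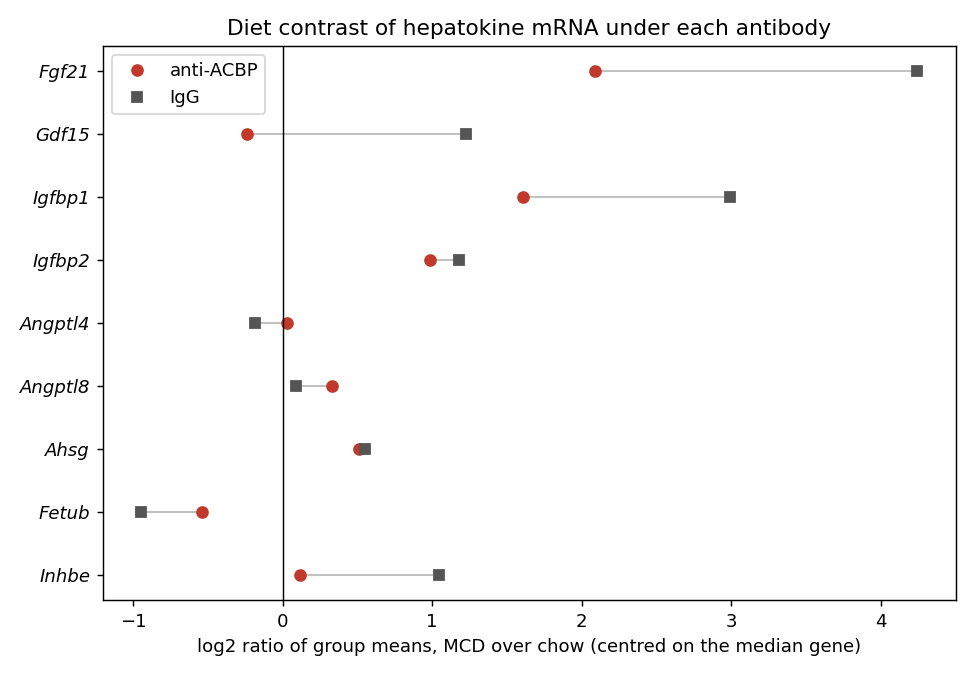
Log2 ratio of group means, MCD over chow, for each hepatokine gene, centred on the median gene, with anti-ACBP as red circles and IgG as grey squares. Fgf21 lies at 2.09 with anti-ACBP and 4.24 with IgG, and Gdf15 at -0.24 with anti-ACBP and 1.23 with IgG.

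The members differed in how much libraries of a group vary. The deposited SE and means imply a coefficient of variation (CV) between libraries, assuming equal dispersion in both groups and including the fit's own smoothing. Over genes at 5 CPM or more the median CV was 12.1% on MCD and 10.7% on chow. Fgf21 had a CV of 48.1% on MCD and 86.8% on chow, Gdf15 44.3% and 84.3%, Angptl8 64.3% and 90.7%, and Igfbp1 64.9% and 46.3%. Angptl4 had 47.1% and 22.7%. By contrast Ahsg had 9.51% on MCD and 10.4% on chow, and Fetub 10.4% and 9.86%, below or near the median gene.

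Of the 9 members 7 lay above the 90th percentile of CV on MCD and 6 on chow; the others were Ahsg and Fetub on both diets and Inhbe on chow (12.3%, against 31.3% on MCD). The SE followed: on chow the SE was 0.89 for Fgf21 and 0.93 for Angptl8, against 0.10 for Fetub. Feeding state and sampling time are not in the labels, and their part was not tested.

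**Figure D5:**
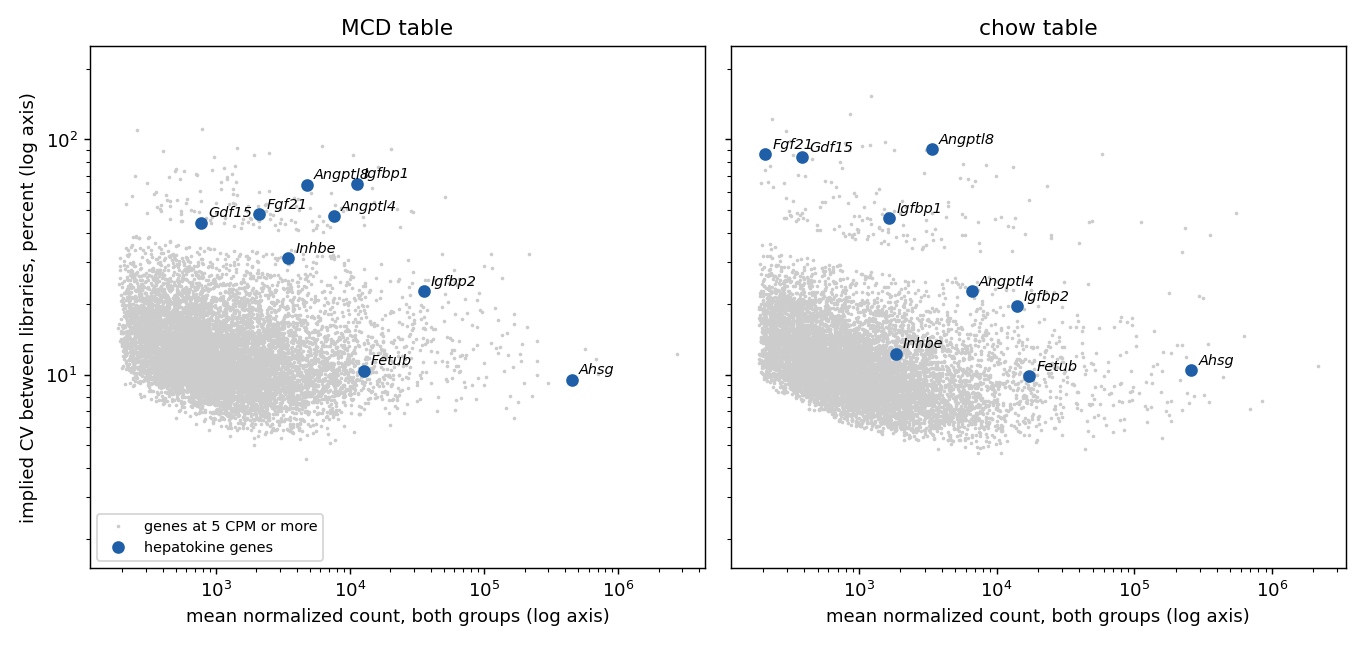
Implied CV between libraries in percent against the mean normalized count, both on log axes, for genes at 5 CPM or more (grey) and the hepatokine genes (blue), in the MCD table (left) and the chow table (right). Ahsg and Fetub lie in the main cloud on both diets, while Angptl8 reaches 64.3% on MCD and 90.7% on chow.

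Levels between genes were compared per kilobase of merged exons (GENCODE vM21), as CPM per kb. In MCD IgG the order was Ahsg (6389), Igfbp2 (460.4), Igfbp1 (312), Fetub (157), Angptl8 (138), Fgf21 (80.6), Angptl4 (59.4), Inhbe (24.4) and Gdf15 (19.0). In MCD anti-ACBP Igfbp1 stood at 97.7, behind Fetub with 188 and Angptl8 with 157. Chow IgG had Fgf21 last with 3.24, behind Gdf15 with 6.17. Ahsg and Igfbp2 or Fetub led in all 4 groups. The implied intervals of Angptl8 reach those of its neighbours in that order on both diets, and this rank is not firm. Intervals of other neighbours overlap too, among them Igfbp1 and Igfbp2 in MCD IgG and Fgf21 and Gdf15 in chow IgG. Their ranks are not firm either. The merged exons of Inhbe (5.319 kb) cover nearly all of its gene (127348857 to 127354411 on chromosome 10). Its level per kb and its rank depend on that annotation.

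Among 8857 genes at 5 CPM or more in all groups, those nearest to a member over the 4 group means (Euclidean distance of centred log2 CPM) are a description from 4 points. Nearest to Fgf21 were the cyclin Ccnd1 (distance 0.53) and the PPARalpha target Cyp4a31 (0.83). Ccnd1 had 7479 normalized counts in MCD anti-ACBP, 17377 in MCD IgG, 1187 in chow anti-ACBP and 524 in chow IgG. Nearest to Gdf15 were Oasl1 (0.32) and haem oxygenase Hmox1 (0.38), and to Igfbp1 Abhd2 (0.41) and the apolipoprotein gene Apoa4 (0.43). Inhbe was matched most closely by Dmpk (0.023) and Marcksl1 (0.037), Igfbp2 by Fmo4 (0.14) and Cyp39a1 (0.23), Ahsg by Reep5 (0.042) and Mettl9 (0.047), and Fetub by Rprd1a (0.055) and 2010315B03Rik (0.071). Angptl4 and Angptl8 lay within 0.03 of Nlrx1, Cib1, Rbm15b and Slc16a11.

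Other secreted liver products were counted from a list of 20. On MCD 5 of 19 rose and 3 fell, and on chow 3 rose and 3 fell. Relative to column totals these were 4 and 6 on MCD and 6 and 3 on chow. The shares over all genes tested were 14.7% rising and 16.2% falling on MCD, and 5.58% and 6.46% on chow. Enho, which encodes adropin, rose on MCD, with 1161 normalized counts in MCD anti-ACBP and 410 in MCD IgG (1.50 ± 0.28, adjusted p = 7.17e-07, authors' deposited table). On chow it fell, with 346 in chow anti-ACBP and 788 in chow IgG (-1.19 ± 0.26, adjusted p = 1.73e-04). Ttr, transthyretin, rose on MCD, with 241048 in MCD anti-ACBP and 140687 in MCD IgG (0.78 ± 0.12, adjusted p = 6.22e-09). Tsku, the hepatokine tsukushi, rose on chow, with 11232 normalized counts in chow anti-ACBP and 4529 in chow IgG (1.31 ± 0.18, adjusted p = 4.01e-11, authors' deposited table). Fgl1, a fibrinogen-like hepatokine, fell on chow, with 5301 in chow anti-ACBP and 13220.3 in chow IgG (-1.32 ± 0.13, adjusted p = 3.59e-22), and did not pass on MCD (-0.01 ± 0.15, adjusted p = 0.971).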

How the data were processed

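mRNA of mouse liver was measured in 20 labelled samples, grouped by the diet and treatment labels. The submitters' processing notes name HISAT2 2.2.1, HTSeq 0.13.5, DESeq2 and the build mm39. For each diet there is 1 of 2 tables, titled as DESeq2 tables per the file headers. Their deposited signal columns are normalized counts (reads divided by size factors), as means over libraries; the deposited fold changes are log2 and end at -5 and 5, with an SE as another column. Deposited p-value columns are rounded to 6 decimals, and p-values below 0.001 were recomputed from fold change and SE, which changed 0 calls. The group means rest on size factors of 0.838 to 1.11, read from genes with 1 read in 1 library.

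No model was refitted, since the tables hold group means. The tests were run across all genes, with Benjamini-Hochberg adjustment over 20265 genes on MCD, 14618 on chow and 14607 for the difference between diets (normal p). CPM, centred diet ratios, implied CVs (the CV follows from the SE, the group means and 5 or 4 libraries) and motif counts were computed here with Python 3.11.15, numpy 2.4.6, scipy 1.17.1 and pandas 2.3.3. Alternatives were column totals, a threshold of 0.01, other filters on low means, a minimum log2 fold change of 1, ratios of group means and other centring.

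Named list genes were chosen as the 2 widest called changes per list and comparison at a mean of at least 100 normalized counts, and the nearest 2 genes per member; Ddit3, Atf4, Asns, Chac1, Atf3 on chow, Gfral, Fgfr4, Timd4, Igf1 and Igfals on MCD, Igfbp3, Igfbp7, Inhbb, Inha, Kng1, Lipg on MCD, Enho on chow and Fgl1 on MCD were named after their values were seen, as was the choice of printed promoters. Members and lists were chosen with earlier results of these data known. Endothelial, cholangiocyte, lymphocyte, adipocyte, acinar and transcription factor lists were counted too. Some genes that the naming rule selects are not reported here.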

Additional observations from a re-analysis of the deposited data

Results flagged for a closer look

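The antibody effect on Inhbe differed between diets by the test of the difference, with a log2 fold change of -0.87 on MCD and -0.000106 on chow (MCD minus chow -0.87, SE 0.31, adjusted p = 0.0281).

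The antibody effect on Fetub differed as well, with 0.44 on MCD and -0.02 on chow (MCD minus chow 0.46, SE 0.14, adjusted p = 0.00646), and this difference did not pass relative to column totals.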

How the results depend on the processing

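Of 5 members called on MCD, 2 (Gdf15 and Fetub) passed at an adjusted p under 0.01, 2 (Gdf15 and Igfbp1) had a log2 change of 1 or more, and 3 (Gdf15, Fetub and Inhbe) remained with no filter on low means; 6 passed over genes at 5 CPM or more, Igfbp2 being added. The 1 member called on chow was lost at both of the first settings (0 each). Of the 2 differences between diets, 1 (Fetub) passed at 0.01. Relative to column totals, values that did not pass changed sign: Angptl4 on MCD (-0.0887), Fetub and Inhbe on chow (0.11 and 0.14), and the differences between diets of Angptl4 (-0.0478), Angptl8 (-0.0256) and Ahsg (-0.30). The Fetub difference was lost there and that of Fgf21 gained; this follows from the shift of -0.19 on MCD and 0.14 on chow. Of the MCD over chow ratios, 8 values (for Ahsg, Fetub, Igfbp2 and Inhbe) moved by more than the implied spread between libraries under another centring. Smaller moves changed the sign of Gdf15 under anti-ACBP (0.0592 with no scaling), of Angptl4 under IgG (0.21 by column totals, 0.0507 with no scaling) and of Angptl4 under anti-ACBP (-0.0175 by hepatocyte markers). No paired analysis was possible because the tables hold group means and no value per library was used, and for the same reason no library could be left out. With 4 libraries per group on chow and CVs of 84.3% to 90.7%, changes in Fgf21, Gdf15 and Angptl8 were poorly resolved.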

Other observations

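Markers of further cell types were counted beside the members. On MCD 1 of 7 endothelial markers rose (Kdr, 0.43 ± 0.17 on the log2 scale, adjusted p = 0.0353) and 1 fell (Lyve1, -1.22 ± 0.30, adjusted p = 3.53e-04, authors' deposited table); relative to column totals 0 rose and 3 fell. Of 6 cholangiocyte markers 2 fell, Spp1 and Epcam (-0.91 ± 0.22, adjusted p = 2.24e-04, and -0.72 ± 0.23, adjusted p = 0.00663), and 4 fell relative to column totals. On chow 1 of the 6 fell, Sox9 (-0.98 ± 0.32, adjusted p = 0.0237, authors' deposited table). T and B cell markers gave 0 calls among 7 on MCD and 0 among 5 on chow in the authors' DESeq2 test, with 1 on each diet at an unadjusted p under 0.05; relative to column totals 1 fell on MCD. Of 9 stellate and fibroblast markers the collagens Col1a1 (-1.99 ± 0.27, adjusted p = 3.86e-12) and Col3a1 (-1.65 ± 0.29, adjusted p = 1.30e-07) fell on MCD, and both fell on chow (-1.15 ± 0.22, adjusted p = 1.12e-05, and -0.87 ± 0.15, adjusted p = 1.20e-06, authors' deposited table). Adipocyte markers summed to 0.601 CPM in MCD anti-ACBP and 1.79 CPM in MCD IgG. Of 5 acinar markers, Cela1 rose on MCD (613 normalized counts with anti-ACBP, 373 with IgG) and fell on chow (456 with anti-ACBP, 817 with IgG). The other acinar markers did not share this pattern. Ctrb1 had 6.32 in MCD anti-ACBP and 25.8 in MCD IgG and did not pass (-2.03 ± 2.10, adjusted p = 0.517, authors' deposited table). On chow it had 0.73 with anti-ACBP and 37.7 with IgG and was not tested. Prss2, Cpa1 and Pnlip had 2.66 or fewer in every group.

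Of 16 liver transcription factors 5 rose and 1 fell on MCD, or 3 and 3 relative to column totals, beside 14.7% of all genes rising and 16.2% falling. Mlxipl, the carbohydrate-responsive factor, had 23155 normalized counts in MCD anti-ACBP and 12251 in MCD IgG (0.92 ± 0.13, adjusted p = 1.75e-11), and Thrb, a thyroid hormone receptor, 1192 in MCD anti-ACBP and 639 in MCD IgG (0.90 ± 0.18, adjusted p = 1.04e-05, authors' deposited table). On chow Stat5b fell (-0.48 ± 0.081, adjusted p = 2.38e-07) and Nr1h4, the bile acid receptor, rose (0.39 ± 0.097, adjusted p = 0.00124).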
